A study of Mus musculus with 19 samples.

Results

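The comparison set bone marrow labelled as lacking Cdk8 in blood cells against marrow that carried the Cre transgene alone. Members were those genes whose normalized count averaged 10 or more across all 19 libraries of the series, which gave 13976 of the 34432 genes in the table. The libraries labelled CDK8KO (n = 4) came from mice with floxed Cdk8 alleles and the Vav-iCre transgene, and the libraries labelled VAV (n = 4) from mice with Vav-iCre and no floxed Cdk8. Other genotypes used below as points of comparison were DKO (n = 4), which combines floxed Cdk8, Vav-iCre and a Cdk19 null allele, and WT (n = 3), which carries none of these. CDK19KO (n = 4), the Cdk19 null alone, is used for the spread of values and for genes called against WT. All 19 libraries entered the main fit. All mice were 8-week-old C57BL/6 animals without treatment, and the RNA was polyadenylated RNA of marrow flushed from tibiae and femurs. Vav regulatory elements drive Cre in blood-forming cells and their progeny, the cells the deletion is meant for. Recombination in other marrow cells, stroma and vessels among them, was not measured here. No label says that each library is a separate animal, so p-values here speak to the library-to-library spread, part of which may be technical.

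CDK8 is a kinase of the Mediator complex, which carries signals from transcription factors to RNA polymerase II. With cyclin C, MED12 and MED13 it forms a kinase module that binds the Mediator core reversibly, and its paralog CDK19 can take its place in the module. CDK8 is known for phosphorylating transcription factors of the interferon response and for acting with beta-catenin, Notch, SMAD and SREBP factors. In blood, STAT and interferon signalling shape the output of granulocytes, red cells, platelets and lymphocytes.

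The 4 libraries labelled CDK8KO held 20574294 to 29206413 reads assigned to genes and the 4 VAV libraries 25472258 to 33010241, so a count of 0 allowed at most 3.74 normalized counts in the shallowest of the 8 (counting error only). Defining markers of marrow were present in every one of the 8 libraries: S100a8 of neutrophils stood at 261851 to 632823 normalized counts in CDK8KO and 300325 to 444477 in VAV, Elane of granulocyte precursors at 4871 to 12187 and 6403 to 16695, and Cd79a of B cells at 1269 to 2632 and 773 to 2715. Muscle was near 0, with Ckm at 1.25 to 17.4 in CDK8KO and 2.61 to 7.13 in VAV. CDK8KO replicate 1 and VAV replicate 3 stood apart at one end of the first principal component of the 8 libraries, which held 34.1% of the variance, with coordinates of 65.5 and 43.3, while the other 3 CDK8KO libraries lay between -26.6 and 4.79 and the other 3 VAV libraries between -48.2 and -17.9. They were the libraries with the most red cell RNA, as given below.

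Cdk8 itself (ENSMUSG00000029635; chromosome 5, 146231230 to 146302874, GRCm38/mm10) was not lower in the libraries labelled as its deletion. Its normalized counts were 1298, 1052, 1011 and 692 in the libraries labelled CDK8KO, against 994, 789, 1315 and 877 in VAV. The genotypes overlapped, with the highest of the 8 values in a VAV library and the lowest in a CDK8KO library. The log2 fold change was 0.02, with a 95% interval of -0.33 to 0.37, and an exact two-sided permutation test gave p = 0.886, where the smallest p that 4 against 4 libraries allow is 0.0286. DKO libraries, with the same floxed alleles, held 881, 806, 761 and 742. WT libraries held 1206, 1243 and 1275, and the difference of CDK8KO from WT was -0.33 (exact permutation p = 0.229). The sign of the CDK8KO to VAV difference turned in 4 of the 8 fits that each left out a library. Reads were summed over the gene, and a transcript that lacks only the floxed exon would still be counted, so these values cannot check the deletion. The genotype rests on the labels, and every direction below is that of the libraries labelled CDK8KO.

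The other subunits of the kinase module also overlapped between the genotypes, and none passed the test. Cdk19, the paralog, was at 2709.6, 3498, 3015 and 3579 normalized counts in CDK8KO, against 3703, 4304, 3020.5 and 3646 in VAV. Its log2 fold change was -0.19 (95% interval -0.42 to 0.03), so an increase in Cdk19 RNA of more than 0.03 on the log2 scale lay outside the interval. Ccnc, the cyclin of the module, had a log2 fold change of 0.19 (-0.06 to 0.45), with 1493, 2150.3, 1592 and 1425 in the libraries labelled CDK8KO, against 1507, 1467, 1398 and 1373 in VAV, so that CDK8KO replicate 2 stood well above the others. Med12, which activates the kinase, was at 0.01 (-0.28 to 0.31) and its paralog Med12l at -0.41 (-1.20 to 0.38). Med13 and Med13l, which tether the module to the core, were at -0.14 (-0.50 to 0.23) and -0.09 (-0.36 to 0.17). Of the 26 tested subunits of the Mediator core, 16 had a positive and 10 a negative difference, and none passed. The median was 0.09, beside 0.00 over all genes tested. For 1 of the 26, all CDK8KO libraries lay above VAV, beside 1.02% of all genes. Med29, a core subunit, was the member with the smallest limma p: it stood at 195, 157, 169 and 183 in the libraries labelled CDK8KO, against 88.3, 133, 163 and 163 in VAV (log2 fold change 0.40), with CDK8KO replicate 2 inside the VAV range.

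**Figure D1:**
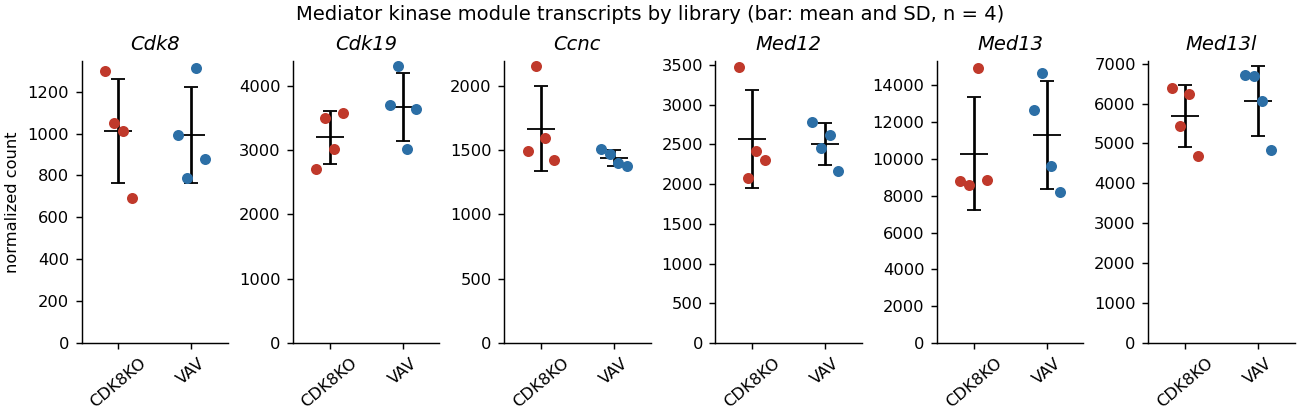
Normalized counts of 6 kinase module genes in the 4 libraries labelled CDK8KO (red) and the 4 VAV libraries (blue), with the mean and SD as a bar. The 2 genotypes overlap for each gene, Cdk8 included.

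Across the transcriptome no gene passed. Of 13976 genes tested with limma, 0 (0%) had an adjusted p under 0.05, and the smallest adjusted p was 0.586. At an unadjusted p under 0.05 there were 1161 genes (8.31%), 528 with a positive difference (3.78%) and 633 with a negative one (4.53%). edgeR on the recovered reads also called 0 genes, with 1173 at an unadjusted p under 0.05, and DESeq2 called 2 (0.0143%). The values of all 4 CDK8KO libraries lay outside the range of the 4 VAV libraries for 246 genes (1.76%), above it for 143 (1.02%) and below it for 103 (0.737%). The log2 fold changes centred on 0, with quartiles of -0.18 and 0.18, and 6888 genes (49.3%) were above 0.

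The intervals show which sizes of change the values of each gene allow. They are not adjusted for the number of genes, so they do not say what size the test could have called. The half-width of the 95% interval had a median of 0.41 on the log2 scale. For 10675 genes (76.4%) the whole interval lay within a 2-fold change in either direction, and for 6403 (45.8%) within a 1.5-fold change. The share within 2-fold was 34.2% of genes with a mean of 10 to 100 normalized counts over the 8 libraries, 88.0% of those from 100 to 1000 and 95.5% of those above 1000. The spread was widest in the 2 genotypes compared: the median SD of a gene on the log2 scale was 0.34 in CDK8KO and 0.28 in VAV, against 0.24 in DKO, 0.18 in CDK19KO (the Cdk19 null alone) and 0.19 in WT. With only the 8 libraries in the fit, the median half-width was 0.50. The share of genes within 2-fold was then 71.4%, and within 1.5-fold 34.8%.

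**Figure D2:**
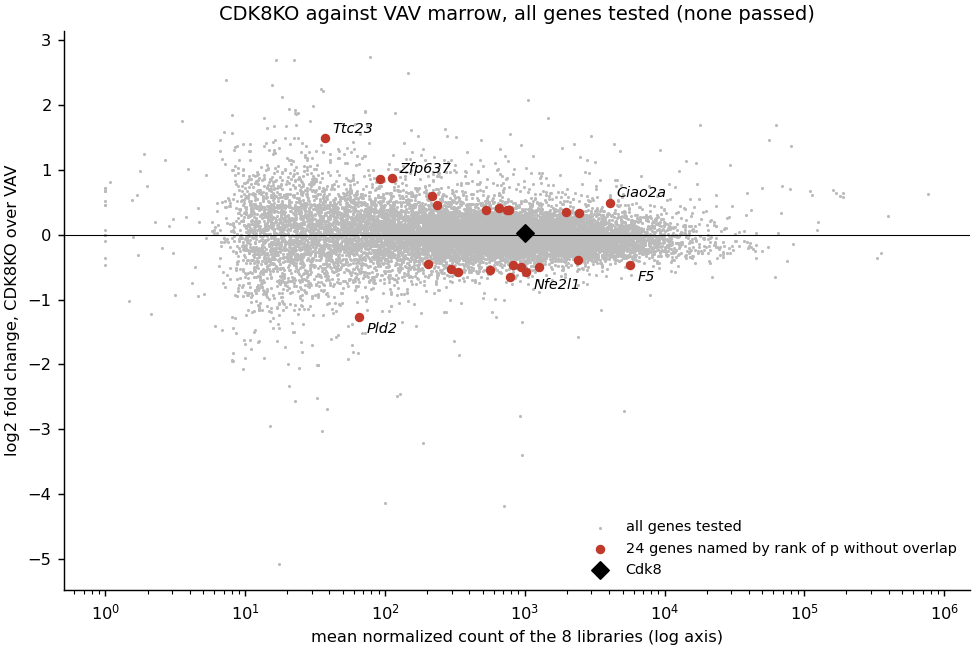
Log2 fold change of CDK8KO over VAV against the mean normalized count of the 8 libraries (log axis; means under 1 are drawn at 1) for the 13976 genes tested. Red points are the 24 genes named by the rank of their p among genes without overlap, none of which passed, and the diamond is Cdk8 at 0.02.

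The 24 genes described next had the smallest unadjusted limma p in each direction among named genes whose 8 libraries did not overlap and whose mean reached 50 in either genotype. All had an adjusted p of 0.586, so they describe the extreme end of these libraries and are not called changes. Their choice by absence of overlap fixes their direction in each library.

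Zfp637, a zinc finger protein, was at 138, 132, 155 and 148 in the libraries labelled CDK8KO, against 53.5, 69.3, 115 and 84.8 in VAV, a log2 fold change of 0.87 (95% interval 0.43 to 1.32). Ciao2a, a cytosolic iron-sulfur cluster assembly factor, was at 4208, 5721, 4936 and 4114 in the libraries labelled CDK8KO, against 2959, 3260.4, 3677 and 3486 in VAV (0.50, 0.23 to 0.76). The lowest CDK8KO value of Ciao2a lay more than 400 counts above the highest VAV value. Dut, the dUTPase that keeps uracil out of DNA, was at 3012, 2772, 2756 and 2407 in the libraries labelled CDK8KO, against 2072, 2195, 2348 and 2051 in VAV (0.33). Ube2a, a ubiquitin-conjugating enzyme of the DNA damage response, was at 768, 916, 832 and 851 in the libraries labelled CDK8KO, against 578, 633, 704 and 676 in VAV (0.38). Each of these differences was smaller than 2-fold. Polr2k, a small subunit shared by the nuclear RNA polymerases, was at 240.2, 293, 276 and 240.4 in the libraries labelled CDK8KO, against 151, 155, 212 and 182 in VAV (0.59). Dnajc19, a co-chaperone of mitochondrial protein import, had a log2 fold change of 0.41, Nit2, an omega-amidase, of 0.45, Rbm7, an RNA-binding subunit of the nuclear exosome targeting complex, of 0.35, and Ppp2r3c, a regulatory subunit of protein phosphatase 2A, of 0.37. The largest of the 12 was that of Ttc23, a gene at low level, with 116, 48.7, 31.7 and 30.9 in the libraries labelled CDK8KO, against 30.3, 13.9, 11.3 and 15.9 in VAV (1.49, 0.59 to 2.40). Spef2, a sperm flagellum protein, was at 0.85 and Zfp944, another zinc finger protein, at 0.38.

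Among the 12 with lower values was the smallest p of all 24. Nfe2l1, the transcription factor that restores proteasome genes, was at 758, 734, 801 and 995 in the libraries labelled CDK8KO, against 1162, 1442, 1076 and 1232 in VAV, a log2 fold change of -0.58 (95% interval -0.85 to -0.32). The WT libraries held 1012, 895 and 775, 2 of them within the CDK8KO range. F5, coagulation factor V, was at 4855, 4993, 4235 and 4948 in the libraries labelled CDK8KO, against 7416, 6416, 6166 and 6383 in VAV (-0.47), with WT at 5153, 4511 and 4471, at the level of CDK8KO. Per2, a repressor of the circadian clock, was at 472, 456, 425 and 463 in the libraries labelled CDK8KO, against 569.9, 713, 859 and 541 in VAV (-0.54). The 4 CDK8KO values of Per2 lay close together, while the VAV values spread over more than 300 counts. Ifnlr1, the receptor chain for type III interferon, was at 695, 839.9, 814 and 748 in the libraries labelled CDK8KO, against 1288, 1203, 880.2 and 1058 in VAV (-0.50). Pld2, a phospholipase D, had the largest difference of the 12, with 60.9, 42.4, 24.1 and 29.4 in the libraries labelled CDK8KO, against 125, 72.9, 85.4 and 83.9 in VAV (-1.26, -1.99 to -0.54). The others were Tbc1d9b, a RAB GTPase-activating protein (-0.50), Trdmt1, a tRNA methyltransferase (-0.57), Cdk5, a kinase known from neurons (-0.53), Rnf19b, an E3 ubiquitin ligase (-0.47), Ston2, an endocytic adaptor (-0.66), Mob3a, of the MOB kinase activator family (-0.40), and Rab37, a small GTPase of secretory granules (-0.45).

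Against WT in place of VAV, the 12 genes with higher values stayed positive, with log2 fold changes of 0.02 to 0.71, and 2 of them had an unadjusted limma p under 0.05. Of the 12 with lower values, 3 turned slightly positive (Ston2 0.023, F5 0.014 and Mob3a 0.0042), and 3 had an unadjusted p under 0.05. The comparison with WT reuses the CDK8KO libraries by which these genes were chosen, so a kept sign was favoured by the choice. Transcript base composition moved with the ranking. The median GC content was 43.6% for the 12 genes with higher values and 53.6% for the 12 with lower values, against 50.1% over all genes. Over the 13965 genes with an annotated transcript, the log2 fold change had a Spearman correlation of -0.274 with GC content, given as a description across genes. The median was 0.10 in the quintile of genes with the lowest GC content and -0.12 in the quintile with the highest. Relative to the mean of the 8 libraries, CDK8KO replicates 2 and 3 had medians of 0.15 and 0.14 in the lowest quintile and -0.17 and -0.19 in the highest, and CDK8KO replicate 4 went the other way, with -0.12 and 0.11, as did VAV replicates 2 (-0.09 and 0.09) and 4 (-0.13 and 0.13). The part of this gradient in the differences was not tested beyond a correction. In it the median of each library was removed within 20 GC bins, a step chosen after seeing the data. All 24 genes then kept their sign, 23 had an unadjusted p under 0.05, and again 0 genes passed. The 24 were chosen by p and absence of overlap in the same 8 libraries, so the counts of 24 and 23 were favoured by the choice.

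Cell types of the marrow were followed with marker lists. In bulk marrow, fewer cells of a type and less RNA per cell cannot be told apart. Red cell genes had the most uneven shares. The 29 erythroid markers, hemoglobin among them, took 3.95, 0.649, 1.07 and 0.510% of reads in CDK8KO replicates 1 to 4, against 0.329, 0.171, 3.46 and 0.321% in VAV replicates 1 to 4 and 0.712, 1.18 and 0.878% in WT. One library in each genotype exceeded the others by more than 2 percentage points, and the remaining shares were 0.510 to 1.07% in CDK8KO, against 0.171 to 0.329% in VAV. WT lay among the CDK8KO values. Of the 29 members, 28 had a positive difference, 0 passed and the median log2 fold change was 0.95, beside 0.00 over all genes. It was 0.36 without CDK8KO replicate 1, 0.57 without VAV replicate 2 and 1.53 without VAV replicate 3, and stood at 0.9998 without both red-cell-rich libraries. Tfrc, the transferrin receptor, had the smallest p of the list, with 50204, 20164, 14570.2 and 6945 in the libraries labelled CDK8KO, against 6758, 4413, 23989.6 and 6548 in VAV (1.11, 0.12 to 2.10). Hba-a1, an alpha globin gene whose near-identical copy makes its count uncertain, was at 226054, 36012, 68011 and 26162 in the libraries labelled CDK8KO, against 13441, 7843, 247959 and 12647 in VAV (1.36, -0.36 to 3.09). The VAV replicate 3 value of Hba-a1 was the highest of the 8.

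Genes of heme synthesis followed the same libraries, with 12 of 13 positive, 0 passed and a median of 0.75. The median was 0.24 without CDK8KO replicate 1, 1.13 without CDK8KO replicate 4, 0.47 without VAV replicate 2 and 1.20 without VAV replicate 3. Cpox, a porphyrin-forming enzyme of the pathway, was at 18314, 6955, 7449 and 3192 in the libraries labelled CDK8KO, against 3321, 2401, 9642 and 3222 in VAV (0.90, 0.05 to 1.76). Uros, uroporphyrinogen III synthase, was at 1.01 (0.01 to 2.01). In a fit with the erythroid level of each library as a covariate, the heme synthesis median was -0.03 and the erythroid median 0.03. That level is the mean of the erythroid list itself, so an erythroid median near 0 was built into the fit.

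Megakaryocyte and platelet genes lay on the other side. Of 23 members, 22 had a negative difference, 0 passed and the median was -0.55 (-0.95 without CDK8KO replicate 1, -1.11 without VAV replicate 2, -0.32 without VAV replicate 3 and -1.27 with the erythroid covariate). The list took 0.205, 0.0860, 0.120 and 0.0935% of reads in CDK8KO, against 0.230, 0.0981, 0.300 and 0.147% in VAV, and the ranges overlapped. Gp1ba, a chain of the platelet receptor for von Willebrand factor, was at 1319, 241, 256 and 365 in the libraries labelled CDK8KO, against 1672, 325, 2475 and 928 in VAV (-1.35, -2.60 to -0.10). Ppbp, a platelet chemokine precursor, was at 11174, 2603, 3766 and 2695 in the libraries labelled CDK8KO, against 15944, 2224, 17840.5 and 6249.9 in VAV (-0.94), and Itgb3, a platelet integrin chain, at -0.76 (-1.53 to 0.00). In both genotypes the libraries differed several-fold among themselves for these genes. The stroma, bone and vessel list, of cell types outside the blood lineages, had 22 of 28 negative members, and 0 passed. Its median was -0.26 against VAV (-0.53 without VAV replicate 2, -0.15 without VAV replicate 3 and -0.64 with the erythroid covariate) and -0.64 against WT. Pdgfrb, a receptor of perivascular cells, was at 164, 112, 74.4 and 142 in the libraries labelled CDK8KO, against 177, 152, 218 and 207 in VAV (-0.66), and Alpl, alkaline phosphatase of osteoblasts, at -0.92 (-1.67 to -0.17).

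**Figure D3:**
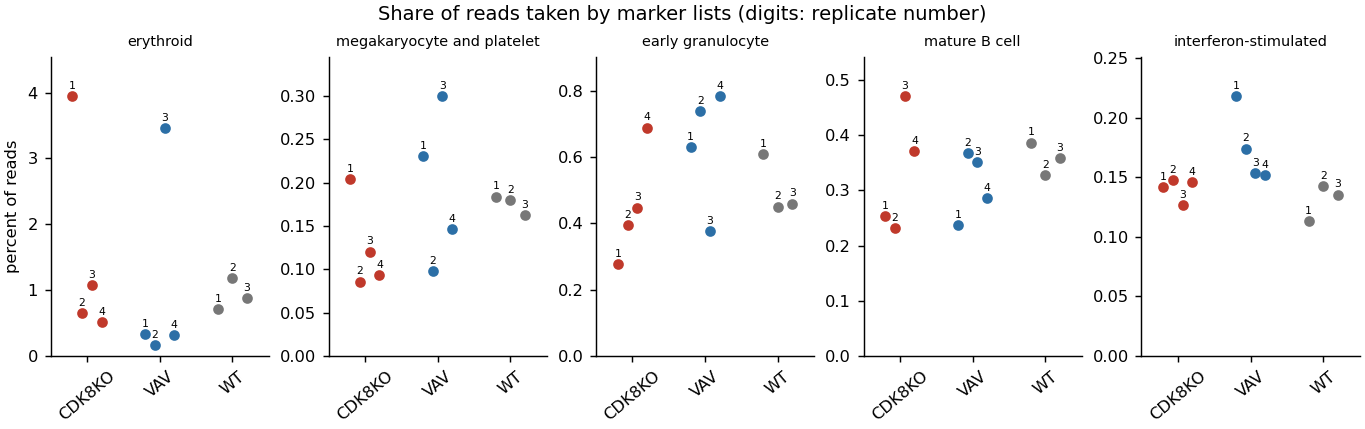
Percent of reads taken by 5 gene lists in each library labelled CDK8KO (red), VAV (blue) and WT (grey); digits are replicate numbers. CDK8KO replicate 1 and VAV replicate 3 held 3.95% and 3.46% erythroid reads, and the interferon-stimulated shares of the 4 CDK8KO libraries lie below those of the 4 VAV libraries and overlap those of WT.

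Early granulocyte genes, which encode the contents of primary granules and their regulators, were lower in every member without a call. All 14 tested members had a negative difference, 0 passed, 4 had an unadjusted limma p under 0.05, beside 4.53% of all genes in that direction, and the median was -0.43. It was -0.26 without CDK8KO replicate 1 and -0.28 without VAV replicate 4, the smallest of the leave-one-out values (the largest was -0.63). With the erythroid covariate the median was -0.16, and against WT it was -0.17; the part of the red cell content in the difference was not tested further. Mpo, myeloperoxidase, was at 24930.0, 39731, 52333 and 74321 in the libraries labelled CDK8KO, against 77818, 106035, 34709 and 82955 in VAV (-0.66, -1.41 to 0.10). Igfbp4, a secreted binding protein of insulin-like growth factors, had the smallest p of the list, with 1564, 1535, 1682 and 3227 in the libraries labelled CDK8KO, against 3339.9, 2852, 2625 and 3985 in VAV (-0.73). Gfi1, a transcription factor needed for neutrophils, was at 429, 495, 433 and 599.8 in the libraries labelled CDK8KO, against 825, 841, 435 and 792 in VAV (-0.53). In VAV the red-cell-rich replicate 3 was the lowest library for Mpo, Igfbp4 and Gfi1, and CDK8KO replicate 4 was the highest of its genotype for these genes. Late neutrophil genes were mixed, with 11 of 24 positive, members from -0.43 to 0.56 and a median of -0.11. That median turned to 0.35 against WT, 0.11 with the erythroid covariate and 0.04 without CDK8KO replicate 1. It stayed negative in the other leave-one-out fits. Ltf, lactoferrin of secondary granules, was at -0.41 (-0.83 to 0.01). Itgam, the CD11b integrin chain, was at 12247, 14664, 11674 and 17054 in the libraries labelled CDK8KO, against 21612, 20546, 12619 and 21125 in VAV (-0.43).

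Stem and progenitor genes had 14 of 17 negative members, 0 passed and a median of -0.23. The median was -0.12 without CDK8KO replicate 1, -0.15 without VAV replicate 1, -0.11 with the erythroid covariate and 0.00 against WT. Erg, a transcription factor of stem cells and megakaryocytes, was at 182, 233, 134 and 274 in the libraries labelled CDK8KO, against 299, 417, 219.6 and 369 in VAV (-0.67, -1.16 to -0.19), and Gata2, of stem and mast cells, at 272, 285, 210.1 and 451 in the libraries labelled CDK8KO, against 419, 503, 371 and 419.6 in VAV (-0.54, -0.94 to -0.14). CDK8KO replicates 2 and 4 reached into the VAV range for Erg, and CDK8KO replicate 4 did for Gata2. Eosinophil, basophil and mast cell genes had 13 of 18 negative members and a median of -0.28. As a library was left out it ranged from -0.48 to -0.10, with -0.10 without CDK8KO replicate 1 and -0.15 without VAV replicate 2, and it was -0.05 with the erythroid covariate. Epx, eosinophil peroxidase, was at 58.7, 142, 114 and 309.7 in the libraries labelled CDK8KO, against 178, 828, 178 and 306 in VAV (-1.19). Lymphoid lists lay slightly above 0, with medians of 0.21 for mature B cells (21 of 24 positive), 0.18 for B cell precursors (14 of 18) and 0.20 for T cells (19 of 24), and 0 members passed. When CDK8KO replicate 3 was left out, mature B cell genes had a median of -0.12 and T cell genes one of -0.03. When VAV replicate 1 was left out, mature B cell genes and B cell precursor genes each stood at -0.01. Against WT the medians were -0.14 for mature B cells, 0.03 for B cell precursors and -0.07 for T cells. The sign for mature B cells and T cells thus depended on the control. Lck, the kinase of the T cell receptor, was at 299.98, 417, 364 and 402 in the libraries labelled CDK8KO, against 218, 339.8, 339 and 133 in VAV (0.61). In the plasma cell list, Igha, the IgA heavy chain constant gene, was at 678, 968, 743 and 2684 in the libraries labelled CDK8KO, against 2113, 3096, 2462 and 6563 in VAV (-1.58, -2.55 to -0.62), and Xbp1, the factor of secretory cells, at -0.27 (-0.51 to -0.04); the list's median was -0.01. The remaining marrow lists had medians of -0.06 for monocytes and macrophages, 0.17 for dendritic cells and 0.12 for NK and cytotoxic cells.

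The interferon-stimulated genes are induced by a signalling pathway on which CDK8 is known to act. Of 36 members, 33 had a negative difference and 3 a positive one, beside 50.7% negative over all genes. None passed, 7 had an unadjusted limma p under 0.05, all negative, beside 4.53% of all genes, and the median was -0.29. As each library was left out it ranged from -0.42 to -0.24, and with the erythroid covariate it was -0.17. The list took 0.142, 0.148, 0.127 and 0.146% of reads in CDK8KO, against 0.218, 0.174, 0.153 and 0.152% in VAV and 0.113, 0.142 and 0.136% in WT. VAV replicate 1 was the highest of these libraries, and against WT the median of the list was 0.12, so the sign of the difference depended on the control. All 4 VAV shares were above the 3 WT shares.

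Igtp, an interferon-induced GTPase, had the smallest p of the list, with 431, 306, 290.0 and 362 in the libraries labelled CDK8KO, against 538, 428, 567 and 482 in VAV (-0.54, -0.92 to -0.17). One CDK8KO library reached into the VAV range. Oas3, an enzyme that senses double-stranded RNA, was at 2097, 2389, 1303 and 2229 in the libraries labelled CDK8KO, against 3681, 3303, 2029.6 and 2562 in VAV (-0.53, -0.98 to -0.08). Parp14, an ADP-ribosyltransferase, was at 2297, 3054, 2849.7 and 2674 in the libraries labelled CDK8KO, against 3897, 3579.8, 3029 and 2765 in VAV (-0.28). For Parp14, CDK8KO replicates 2 and 3 reached into the VAV range. The 14 STAT and SOCS genes had 11 negative members, 0 passed and a median of -0.27, which was -0.18 after removal of the GC gradient, -0.12 without VAV replicate 1 and -0.12 with the erythroid covariate. The part of the red cell content in it was not tested further. Stat5a and Stat5b, which act downstream of cytokine receptors, were at -0.31 (-0.56 to -0.06) and -0.28 (-0.50 to -0.05). Irf7, a factor that amplifies interferon output and a member of both the interferon and dendritic cell lists, was at 413, 434, 291 and 543 in the libraries labelled CDK8KO, against 553, 557, 488 and 608 in VAV (-0.42).

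The interferon-stimulated genes share a sequence feature that the list did not use. The core of the interferon-stimulated response element was searched as TTTC followed after any 2 bases by another TTTC, on both strands, with any match counting once per promoter, in RefSeq promoters of 300 bases (250 before to 50 after the gene start, GRCm38.p6). It was present in 16 of the 26 members with a promoter in the table (61.5%), against 1079 of 27025 promoters in all (3.99%). A match is a description of the letters and says nothing of binding in these samples. The stretches around the motif in Igtp and Oas3, the members of smallest p, in Trim30a, a member of high level, and in Ifit1, a canonical target chosen after its values were seen, show what the motif looks like, written 5′ to 3′ on the strand of the gene, with the motif in capitals.
Igtp, chr11:58199502-58199551, + strand: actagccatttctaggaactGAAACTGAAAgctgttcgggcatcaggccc
Oas3, chr5:120777705-120777754, - strand: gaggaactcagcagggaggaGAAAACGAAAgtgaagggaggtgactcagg
Trim30a, chr7:104465200-104465249, - strand: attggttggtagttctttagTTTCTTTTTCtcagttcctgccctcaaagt
Ifit1, chr19:34640765-34640833, + strand: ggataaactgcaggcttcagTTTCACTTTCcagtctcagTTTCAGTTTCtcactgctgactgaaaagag

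Ifit1, whose promoter holds the motif more than once, stood at 162, 332, 166 and 246 in the libraries labelled CDK8KO, against 553, 404, 268 and 279 in VAV (-0.73, -1.40 to -0.06). Trim30a, an interferon-induced TRIM protein, stood at 2227, 3849, 3055 and 3288 in the libraries labelled CDK8KO, against 4676, 4054, 2492 and 3367 in VAV (-0.22, -0.61 to 0.17). The 2 genes overlapped between the genotypes, and CDK8KO replicate 2 was the highest of its group for both.

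Other pathways that CDK8 is known to touch showed no called member. Of 15 Wnt and beta-catenin targets, 7 had a positive and 8 a negative difference, with a median of -0.06. Ctnnb1, which encodes beta-catenin, was at 4267, 4059, 3331 and 4002 in the libraries labelled CDK8KO, against 4909.6, 4868, 4209 and 4023 in VAV (-0.20, -0.41 to 0.01). Of 10 Notch genes 6 were negative (median -0.20), with Notch2, a receptor of blood cells, at 8179, 10033, 9506 and 12173 in the libraries labelled CDK8KO, against 12966, 14184, 10201 and 12913 in VAV (-0.34). Cholesterol and lipid synthesis had a median of -0.07 over 28 genes, which turned to 0.33 with WT as the control. Srebf1, the lipogenic factor whose protein CDK8 is known to phosphorylate, stood at 846, 351, 328 and 716 in the libraries labelled CDK8KO, against 977, 629, 685 and 824 in VAV (-0.58, -1.10 to -0.06). CDK8 is also known as a partner of HIF1A. Of 27 glycolysis and HIF targets, 23 were negative, 0 passed and the median was -0.23, with Vegfa, the angiogenic factor, at 316, 449, 316 and 378 in the libraries labelled CDK8KO, against 692, 521, 392.2 and 615 in VAV (-0.59). The median was -0.07 with the erythroid covariate, and against WT it was -0.07.

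Cell cycle genes were divided by phase, and 0 passed. Of 33 S phase genes, 29 were positive, 6 of them with an unadjusted limma p under 0.05, beside 3.78% of all genes in that direction, with a median of 0.16, which turned to -0.05 without CDK8KO replicate 1 and to -0.03 with the erythroid level as a covariate. Rfc3, a clamp loader subunit, was at 1061, 784, 968 and 743 in the libraries labelled CDK8KO, against 533, 629, 765 and 679.7 in VAV (0.44). Mitosis genes had a median of 0.00 over 32 members. Mad2l1, of the spindle checkpoint, was the only member without overlap. Its CDK8KO values all lay above VAV, as for 1.02% of all genes. They were 5305, 4356, 5022 and 4275 in the libraries labelled CDK8KO, against 3899, 3804, 4125 and 3797 in VAV (0.27). Among cell cycle kinases and inhibitors, Cdk6, the kinase of the G1 phase that is abundant in blood precursors, was at 6756, 7532, 8545 and 13101 in the libraries labelled CDK8KO, against 15373, 15555, 8606 and 13216 in VAV (-0.56, -1.01 to -0.11), and Ccne2, cyclin E2, at 0.54 (0.10 to 0.98). Hexim1, which holds the elongation kinase CDK9 inactive, was the only gene without overlap among the 14 other transcription kinases and cyclins. Its CDK8KO values all lay below VAV, as for 0.737% of all genes. They were 615, 560.4, 451 and 635 in the libraries labelled CDK8KO, against 647, 679, 656 and 705 in VAV (-0.26). Hspe1, the mitochondrial chaperonin 10, was at 0.57 (0.21 to 0.94) in a heat shock list with a median of -0.06.

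The remaining lists had medians of -0.13 for immediate early genes, -0.13 for NF-kappaB and inflammatory genes, 0.04 for p53 targets, -0.11 for the integrated stress and unfolded protein response, -0.19 for adhesion and marrow retention, and -0.02 for the other transcription kinases and cyclins, and none of their members passed. The skeletal muscle list, at most 0.00194% of reads in the 8 libraries, had a median of 0.54 that rested on counts near 0. Of all 35 lists, 19 kept the sign of their median in each of the 8 leave-one-out fits, and 11 under every alternative tried.

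**Figure D4:**
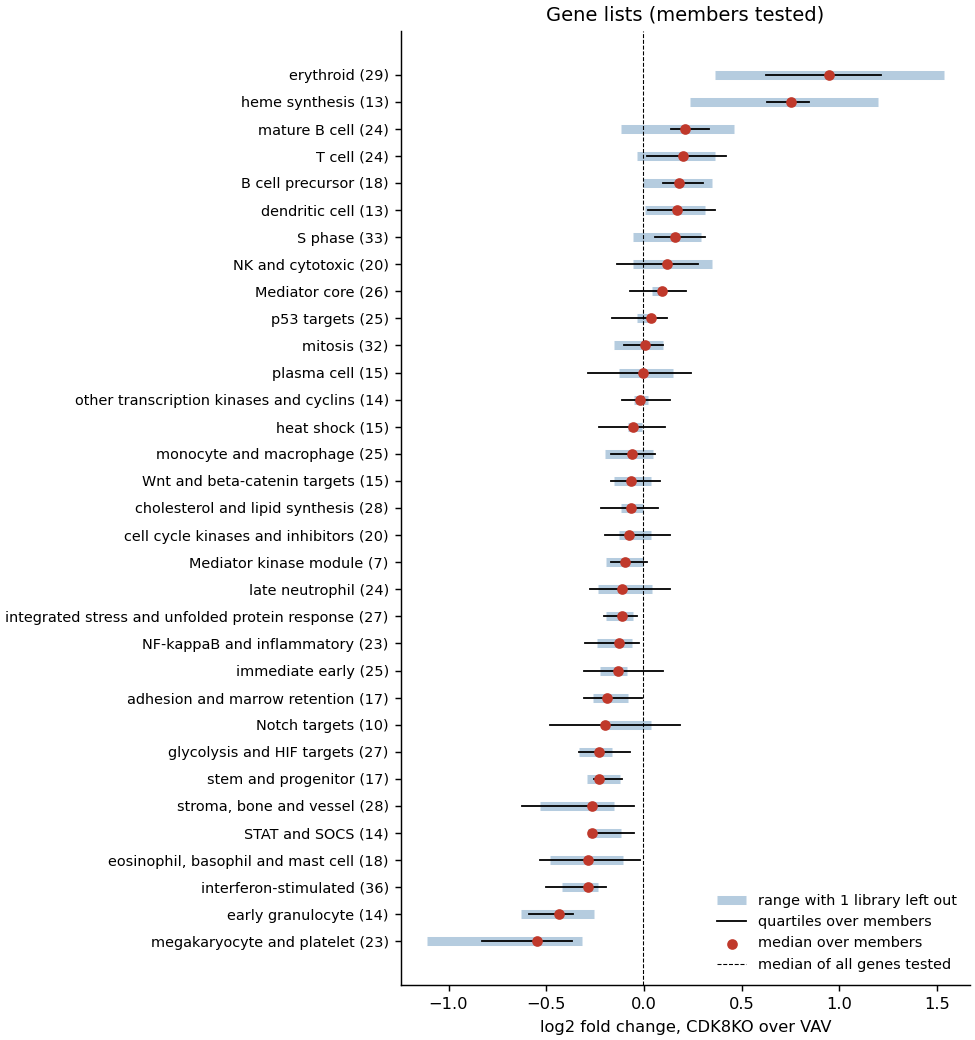
Median log2 fold change of CDK8KO over VAV (red point), quartiles over members (black line) and range of the median as each of the 8 libraries was left out (blue band) for 33 gene lists, with the number of members tested. The erythroid median of 0.95 has the widest band, and no member of any list passed.

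The genes around the floxed locus on chromosome 5 were also set out. Of 76 tested genes within 5 Mb, 40 had a positive and 36 a negative difference, with a median of 0.02. None passed, 6 had an unadjusted limma p under 0.05, beside 8.31% of all genes, and 2 did not overlap between the genotypes, beside 1.76%, so both counts were near the background. The 2 without overlap were Trrap, a scaffold of histone acetyltransferase complexes (4009.5, 4303, 4399 and 4598 in the libraries labelled CDK8KO, against 4931, 5528, 5136 and 4984 in VAV; -0.25), and Flt1, a receptor for VEGF (122, 56.2, 126 and 121 in the libraries labelled CDK8KO, against 170.3, 158, 193 and 206 in VAV; -0.83), and both were named after their values were seen. Within 1 Mb, 11 genes lay between -0.16 and 0.68. The nearest tested protein-coding gene, Rnf6, of a ubiquitin ligase, stood at 921, 1027, 782 and 992 in the libraries labelled CDK8KO, against 818, 1003, 955 and 1090.0 in VAV (-0.05, -0.31 to 0.20). The highest within 1 Mb was Gpr12, a receptor of low level here, with 57.6, 39.9, 39.4 and 40.7 in the libraries labelled CDK8KO, against 20.5, 34.3, 40.1 and 18.5 in VAV.

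A few genes were called when the fit or the control was changed. Without VAV replicate 3, limma called Rfesd, a Rieske iron-sulfur domain protein, with a log2 fold change of 1.39 (adjusted p = 0.0409), while with all libraries it was 1.09 (adjusted p = 0.586): its counts were 676, 599, 592 and 344 in the libraries labelled CDK8KO, against 177, 187, 473 and 257 in VAV, and VAV replicate 3 lay inside the CDK8KO range. DESeq2 called Rex2 and Gm2981, whose reads came from few libraries. Rex2 was at 0 in all 4 CDK8KO libraries and in VAV replicates 1 and 2, with 68.8 and 51.2 in VAV replicates 3 and 4. Gm2981 had 180.4 in CDK8KO replicate 1 and 0 in the other 7 libraries.

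With WT in place of VAV as the control, limma called 12 genes of 13976 (0.0859%), 7 higher and 5 lower in CDK8KO than in WT. For all 12 the VAV libraries lay on the same side of WT, and 6 of them were called for VAV against WT, where 13 genes (0.093%) were called in all. Prox1, a homeobox factor, shows the pattern: it was at 4.35, 2.496, 2.19 and 2.26 in CDK8KO, 3.57, 8.02, 6.10 and 4.20 in VAV and 518, 848 and 533 in WT. Its log2 fold change was -7.37 against WT and -0.74 against VAV (adjusted p = 0.586). Klra17, a lectin-like receptor gene, was at 214, 263, 309 and 241 in CDK8KO, 402, 312, 185 and 274 in VAV and 107, 89.1 and 113 in WT. Ankrd22, an ankyrin repeat gene, was at 711, 924, 801 and 765 in CDK8KO, 837, 963, 686 and 929.8 in VAV and 511, 492 and 467 in WT. In Prox1, Klra17 and Ankrd22, CDK8KO and VAV, which both carry Cre, stood together and apart from WT. Gab2, a docking protein of cytokine receptors, was called against WT (-0.86, adjusted p = 0.0476), with 1084, 1308, 766 and 1329 in CDK8KO, 1295, 1585, 1284 and 1401 in VAV and 2003, 2114 and 1868 in WT, and its difference from VAV was -0.34 (-0.65 to -0.02). The others were Sva, Il1r2, Ttyh1, Commd10, H4c18, Gm15446, Dynlt1b and Gm46223. CDK19KO, the Cdk19 null alone, also stood apart from WT for some of the 12. Its means were 1355 for Gab2, 1198 for Il1r2, 4.63 for Ttyh1 and 20236 for H4c18. The WT means were 1995, 2321, 59.3 and 9761. For the remaining called genes the CDK19KO mean lay nearer to WT than to CDK8KO. H4c18 belongs to a family of near-identical histone genes and Gm46223 is a processed pseudogene, so their counts are uncertain.

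The double knockout shows what these libraries register when many genes change. DKO differed from CDK8KO in 238 genes (1.7%), 147 higher (1.05%) and 91 lower (0.651%), and from VAV in 213 (1.52%). The comparisons of CDK8KO with VAV and of DKO with VAV share the VAV libraries, so their values are given side by side. The test is that of DKO against CDK8KO. It uses the same DKO libraries by which the genes were chosen, so passing it, or not overlapping, was favoured by the choice. For the 18 genes named from the DKO comparison, 17 passed in DKO against CDK8KO and 17 did not overlap between those genotypes, and the exception to both was Adamtsl1, an extracellular matrix protein (adjusted p = 0.111). Over all 213 genes called in DKO against VAV, 126 passed in DKO against CDK8KO, beside 1.7% of all genes, and 155 did not overlap between those genotypes. The share of all genes without overlap between DKO and CDK8KO was not counted. The median size of the difference from VAV over the 18 was 2.97 for DKO and 0.28 for CDK8KO on the log2 scale, and the genes were chosen for their DKO difference. Over the 213 genes the median size was 1.29 for DKO and 0.22 for CDK8KO.

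Asprv1, an aspartic protease expressed in neutrophils, was at 36.5, 36.4, 21.1 and 19.5 in DKO, 449, 1597, 703 and 922 in CDK8KO and 1171, 1012, 580.4 and 1098 in VAV. DKO minus CDK8KO was -4.87 (limma adjusted p = 1.21e-07), and CDK8KO minus VAV -0.18 (-0.88 to 0.53). Cd163, the haemoglobin scavenger receptor of macrophages, was at 62.2, 51.9, 75.8 and 77.9 in DKO, 489, 542, 388 and 749 in CDK8KO and 482, 434, 695 and 589.9 in VAV, so the CDK8KO and VAV libraries mixed while DKO stood apart. H1f0, a linker histone, was at 171, 151, 120.0 and 186 in DKO, 706, 1078, 628 and 1067 in CDK8KO and 757, 828, 751 and 1199 in VAV. Fcnb, a ficolin of granulocyte precursors, had a DKO minus CDK8KO difference of -2.57 and a CDK8KO minus VAV difference of -0.36 (-0.87 to 0.15). For Nt5e, the CD73 ectonucleotidase, these were -2.10 and -0.01, for Thbs1, thrombospondin, -2.16 and -0.26, for Cxcr1, a chemokine receptor of neutrophils, -3.11 and -0.42, and for Ighg2c, an IgG heavy chain constant gene, -3.11 and -0.30. The nearest to an intermediate position was Pdzk1, a scaffold protein at low level, with 1.66, 5.19, 5.26 and 2.998 in DKO, 57.6, 15.0, 15.3 and 19.6 in CDK8KO and 45.5, 39.4, 99.3 and 46.2 in VAV: CDK8KO minus VAV was -1.20 (-2.17 to -0.24).

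Among the genes higher in DKO, Perp, a p53-induced membrane protein, was at 384, 484, 485 and 468 in DKO, 30.4, 26.2, 40.5 and 58.0 in CDK8KO and 20.5, 25.5, 26.1 and 38.6 in VAV. Chit1, a chitinase of phagocytes, was at 583, 644, 299 and 574 in DKO, 69.6, 61.2, 83.2 and 184 in CDK8KO and 74.9, 89.0, 67.1 and 102 in VAV. In CDK8KO, replicate 4 was the highest library for both, still below every DKO library. Ear6 and Prg3, of eosinophil granules, had DKO minus CDK8KO differences of 4.54 and 3.37, and CDK8KO minus VAV differences of -0.95 (-2.22 to 0.31) and -0.51 (-1.52 to 0.49). Upp1, uridine phosphorylase, was at 2.22 and 0.47, Aspa, aspartoacylase, at 2.75 and 0.00, Adamdec1, a secreted metalloprotease, at 4.47 and 0.24, and Muc20, a mucin, at 2.40 and 0.12. For each of these genes the CDK8KO and VAV libraries overlapped.

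**Figure D5:**
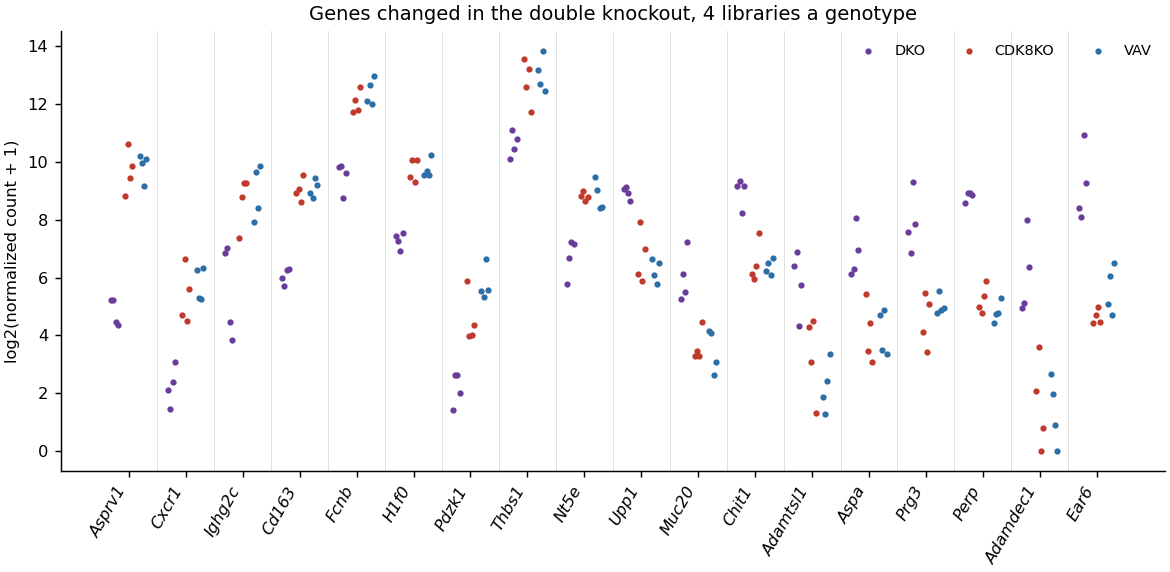
Log2(normalized count + 1) of 18 genes named from the double knockout, in the 4 libraries each of DKO (purple), CDK8KO (red) and VAV (blue). The CDK8KO and VAV points share a range for each gene, and the DKO points lie apart from CDK8KO for all but Adamtsl1.

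By count of members, the most passed in DKO against CDK8KO for eosinophil, basophil and mast cell genes and for interferon-stimulated genes, apart from the list of DKO genes itself. The lists differ in size. Of 25 monocyte and macrophage genes, 5 were lower in DKO (beside 0.651% of all genes) and 0 higher. Of 24 late neutrophil genes, 2 were higher and 3 lower. Of the 36 interferon-stimulated genes, 7 were higher in DKO than in CDK8KO by the test (beside 1.05% of all genes) and 0 lower, with a median difference of 0.55. They were Oasl1, Oasl2, Irf7, Ifi44, Zbp1, Gbp2 and Parp14, named after their values were seen. Irf7 was at 693, 808, 723 and 809 in DKO, against 413, 434, 291 and 543 in CDK8KO (adjusted p = 0.0161), and 553, 557, 488 and 608 in VAV. Of the 18 eosinophil, basophil and mast cell genes, 10 were higher in DKO than in CDK8KO and 0 lower, with a median difference of 1.19, while the CDK8KO minus VAV median was -0.28. Cdk19 itself was at 1185, 1202, 1109.5 and 1196 in DKO and 2709.6, 3498, 3015 and 3579 in CDK8KO, a difference of -1.44 (adjusted p = 1.98e-07). The DKO genotype carries the Cdk19 null allele.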

How the data were processed

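Members, gene lists and tests were chosen with earlier results of these data known. Bone marrow RNA was sequenced in 19 libraries of 5 genotypes (Kapa mRNA Hyper kit, paired reads of 150 bases, per the labels' protocols); Salmon 1.4.0, DESeq2 and mm10 appear in the submitters' processing notes, without their roles. The authors deposited normalized counts per gene, a signal whose scaling no label describes. In each library 100% of values were whole multiples of 1 step (tolerance 0.001 read), so the values are read counts divided by 1 factor per library, and whole reads were recovered. No pair of libraries in a genotype was a duplicate.

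Log2(normalized count + 1) was fitted with limma 3.58.1 (R 4.3.3; trend), with all 19 libraries and no covariate, for the 13976 genes averaging 10 or more, Benjamini-Hochberg adjustment over all of them and calls at an adjusted p under 0.05. Symbols, coordinates and transcript GC content came from GENCODE vM21 by Ensembl ID (13965 genes matched). Intervals are 95% intervals of the fit, and log2 fold changes are on the log2(value + 1) scale. Cdk8 was tested by exact permutation. The fit was tested on simulated data, but no outcome of that test is given here and no result rests on it. Alternatives were edgeR 4.0.16 and DESeq2 1.42.0 on the recovered reads, other pseudocounts, filters, scalings, controls and weights, an erythroid covariate, a replicate block and each library left out.

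The genes named by rank were the 12 per direction with the smallest p among those with a mean of at least 50 in CDK8KO or VAV and no overlap, without predicted genes, V, D and J segments, Y-linked genes and Xist (other X-linked genes were kept). Also named were the kinase module, members of lists (the 3 of highest level and the 2 of smallest p were open to naming), genes called under an alternative, genes within 1 Mb of Cdk8 and genes of the DKO comparison (15 from an earlier list and the 6 per direction of largest change, of which 18 are described). Some genes that the rule allows are not reported here.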

Additional observations from a re-analysis of the deposited data

Results flagged for a closer look

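Within each genotype the 4 values of every value examined here were checked for a library far from the other 3 (gap over range above Dixon's limit). This flagged 22 of 240 groups of 4 (9.17%), where chance flags about 1 in 20. Most lay in 2 libraries, and no cause was tested.

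CDK8KO replicate 1 stood apart with 3.95% of reads in erythroid genes and 0.475% in heme synthesis genes, and VAV replicate 3 with 3.46% and 0.302%. In VAV replicate 3 the red cell genes Hba-a1 (247959 normalized counts), Tfrc (23989.6), Cpox (9642) and Uros (1316) were high, Pdzk1 was high (99.3), and Gfi1 (435) and Itgam (12619) were low. H1f0 was high in VAV replicate 4 (1199). In CDK8KO replicate 1 the platelet genes Ppbp (11174), Gp1ba (1319) and Itgb3 (3902) were high, as was Pdzk1 (57.6). CDK8KO replicate 4 was high for Igfbp4 (3227) and Igha (2684).

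CDK8KO replicate 3 was low for Rnf19b (546) and Ston2 (405) and high for Med13 (14935), and CDK8KO replicate 4 was high for Muc20 (21.1).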

How the results depend on the processing

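Of 24 alternative settings, 19 called 0 genes for CDK8KO against VAV, as did limma with all libraries. The count was 1 with the 8 libraries alone in the fit (Gm14303, at 0 in all CDK8KO libraries), 2 with DESeq2, 12 with WT as control and 3 with WT and VAV pooled, and it was 0 to 1 as each library was left out. The Cdk8 difference of 0.02 was -0.33 with WT as control and -0.13 with the pooled control, and ranged from -0.11 (without CDK8KO replicate 1) to 0.19 (without CDK8KO replicate 4). It was also negative without CDK8KO replicate 2, VAV replicate 2 or VAV replicate 4. With WT as control, the difference was 0.014 for the gene F5, 0.023 for the gene Ston2 and 0.0042 for the gene Mob3a. Of 84 genes carried through the alternatives, 24 changed sign under at least 1 of them, 3 of these among the 24 genes named by p, and none of the 84 was called under any. No list member or kinase module gene passed, and a sign change in them was counted here and not listed, a choice made after seeing the data, as was the GC correction. For the gene Ighg2c, DKO against CDK8KO was no longer called without CDK8KO replicate 3 (-2.91), DKO replicate 3 (-2.75) or DKO replicate 4 (-2.55), nor for the gene Muc20, DKO against CDK8KO, without DKO replicate 4 (2.00). Same-numbered libraries were not paired by any label, and their deviations correlated at -0.14, -0.01, -0.09 and 0.28; with the replicate block 0 genes were called. Precision was lowest at low counts, where of genes with a mean of 10 to 100, 34.2% had an interval within 2-fold.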

Other observations

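Some genes ranged from 0 to high values among the 8 libraries, and others stood far apart between libraries or genotypes. Among tested genes, 31 had a library of the 8 at 0 and another at 100 normalized counts or more, 19 of them protein coding and 12 pseudogenes. The 2 libraries could be of different genotypes, so switches within a genotype were not counted. Nnt, a mitochondrial transhydrogenase, is in the table under 2 gene IDs, with 1955 and 0 in VAV replicate 4. Pm20d1, a secreted peptidase, had 7532 in VAV replicate 2 and at most 67.1 in the other VAV libraries. Plekha1, a phosphoinositide-binding protein, had 5943 in CDK8KO replicate 2 and 329, 2104 and 1494 in CDK8KO replicates 1, 3 and 4, against 432 to 478 in VAV. Commd10, a copper metabolism domain protein, had 1153 to 2150.4 in CDK8KO and 1055 to 1425 in VAV, against 371 to 502 in WT. Sva, a seminal vesicle antigen gene, had 21.1 to 36.2 in CDK8KO and 20.4 to 27.7 in VAV, and was at 0 in WT. These genes were picked after their values were seen.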
